A study of Mus musculus with 6 samples.

Results

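Progenitor and fetal haematopoietic regulators were followed in mouse myeloid cells cultured with or without doxycycline. The set names 10 genes: the transcription factor genes Myb, Meis1, Hoxa9, Sox4 and Bcl11a, the surface marker Cd34, the fetal RNA-binding and chromatin genes Lin28b, Igf2bp1 and Hmga2, and the secreted factor Angpt1. Each was read from array features whose annotation gave that gene symbol and no other, and where a gene had several, from the feature with the highest mean over all arrays. This gave values for 9 of the 10 genes, among 22180 genes measured in all. The only feature for Igf2bp1 carried a second symbol, Mir3063, and was not counted.

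Of the 9 measured genes 1 fell in the induced cells and 0 rose, where 1.05% of all genes fell and 0.374% rose. Angpt1 fell from 8.64 ± 0.28 to 6.82 ± 0.42 on the log2 scale (mean ± SD, n = 3 per group). The other 8 did not pass the test. Of these, Myb, Bcl11a and Hmga2 were above the range of background in uninduced cells, and Meis1, Hoxa9, Cd34, Sox4 and Lin28b lay within that range on every array.

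The study profiled myeloid cells of mouse fetal liver, grown with GM-CSF (1 ng/ml), a cytokine that sustains granulocyte and macrophage precursors, on Affymetrix Mouse Gene 2.0 ST arrays. Uninduced cells (3 arrays) had no doxycycline, and induced cells (3 arrays) had 1000 ng/ml for 72 hours, which the labels treat as expression of PU.1, the product of Spi1 and a member of the ETS family. The labels give neither the strain, the genotype, the age of the fetuses nor the construct, and no array had doxycycline without induction, so effects of the drug and of PU.1 cannot be told apart. They do not say whether arrays A, B and C of a group came from separate cultures, so p-values measure the spread between these arrays, which may be technical.

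Blood progenitors are held in a dividing, undifferentiated state by a small group of transcription factors. MYB drives their proliferation, and HOXA9 with its partner MEIS1 maintains their self-renewal; these genes are usually switched off as myeloid cells mature. Fetal progenitors also express LIN28B, an RNA-binding protein that blocks the maturation of let-7 microRNAs and so keeps let-7 targets such as HMGA2 and the IGF2BP proteins on. PU.1 works in the opposite direction in the myeloid lineage, toward macrophages and granulocytes.

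Background was taken from 1390 olfactory and vomeronasal receptor genes, which these cells are not known to use. Their 95th percentile lay between 7.05 and 7.39 on the uninduced arrays and induced A, and at 7.99 and 7.86 on induced B and C, and a value below it is called in the range of background. Induced B and C also had a narrower spread of values, with interquartile ranges of 2.17 and 2.21 against 2.37 to 2.62 on the other arrays. Over all features, induced A correlated at 0.991 with uninduced A and at 0.973 and 0.981 with induced B and C, so by its overall profile it stood nearer to an uninduced array than to its own group. The 11090 genes with the higher means had a median difference of -0.25, against 0.06 over all 22180. Values by array are given in the order A, B, C. Differences below are induced minus uninduced on the log2 scale, and p-values are limma's, adjusted over all 22180 genes. Over all genes 28.3% had an unadjusted p under 0.05 in either direction, and in 31.4% the groups did not overlap. List counts and lack of overlap below are to be read beside these shares.

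Spi1 itself was at 8.80, 8.65 and 8.84 in uninduced and 9.13, 9.04 and 9.05 in induced cells, higher on 3 of 3 induced arrays by 0.31 (SE 0.12, limma adjusted p = 0.152), which did not pass. Whether its feature reads the induced construct is not given by the labels.

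**Figure D1:**
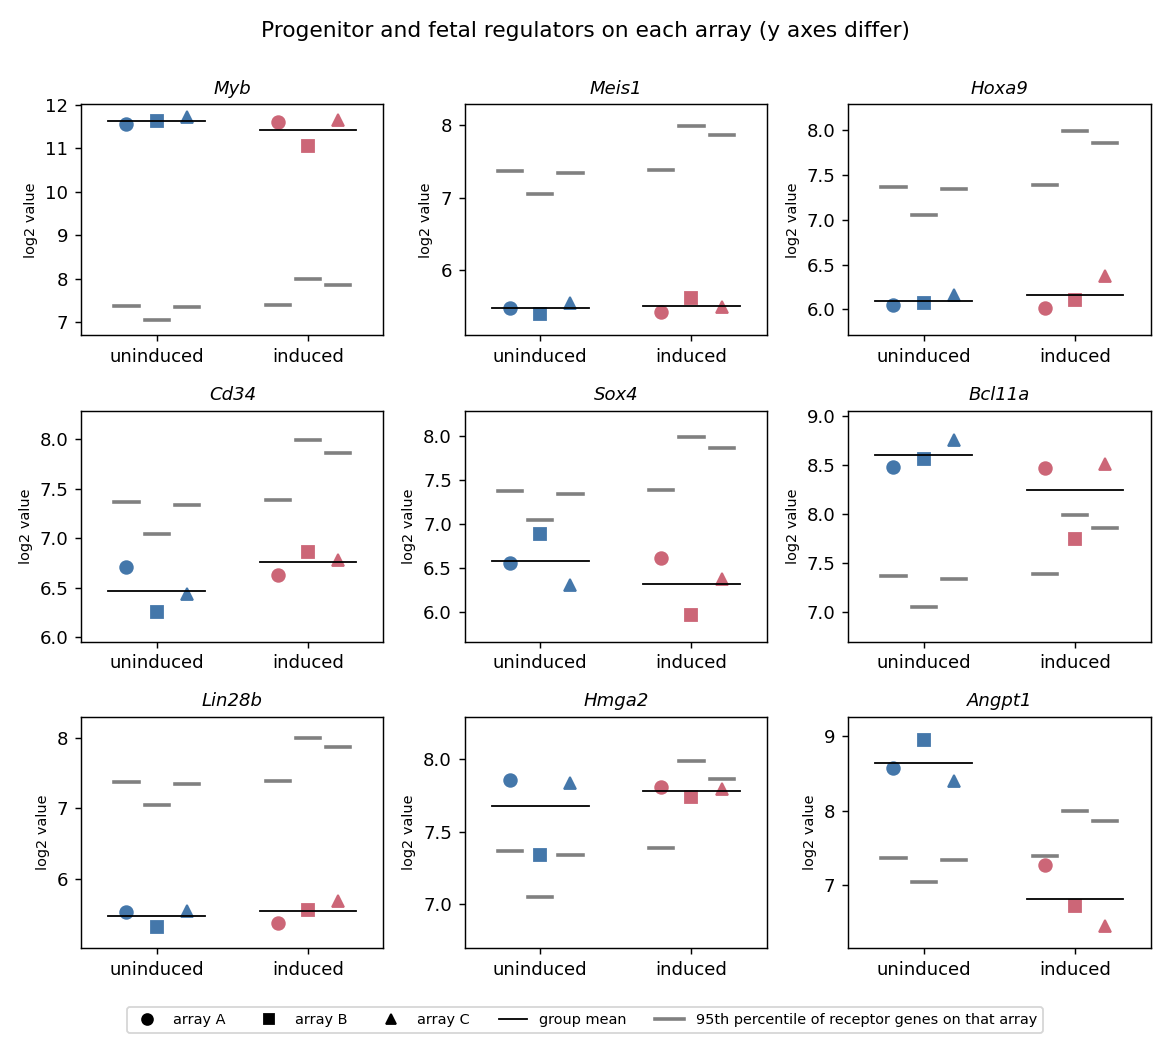
Log2 value of each of the 9 genes on each array (circle A, square B, triangle C), uninduced in blue and induced in red, with group means as black lines and the 95th percentile of the receptor genes on that array as grey bars; the y axes differ between panels. Angpt1 is the panel in which the groups do not overlap, with every induced array under its grey bar, while Myb stays far above background on all 6 arrays.

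Angpt1 (chromosome 15, 42424667 to 42676977 in GRCm38) encodes angiopoietin 1, the secreted ligand of the receptor kinase TIE2, known for its part in vessel stability and in the niche of blood stem cells. Its values were 8.57, 8.95 and 8.39 in uninduced cells and 7.28, 6.73 and 6.46 in induced cells. Every uninduced array lay above every induced array, and above its own background limit, whereas all 3 induced arrays lay in the range of background. The difference was -1.81 (SE 0.21, 95% interval -2.29 to -1.34, limma adjusted p = 0.0025). Because the induced level is only a bound, the fold is given against the mean background limit of the induced arrays and is at least 1.85-fold lower; the measured fold was 3.51.

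The fall of Angpt1 was present in each induced array, at -1.36 (A), -1.91 (B) and -2.17 (C) from the uninduced mean. It held when any single array was left out (-2.04 to -1.63, limma adjusted p from 0.00034 to 0.0191). Induced A alone against the 3 uninduced arrays gave -1.36 and did not pass (limma adjusted p = 0.0729). A second feature named Angpt1 never left the range of background, at 6.17 in uninduced and 6.12 in induced cells. The mean of both features was therefore lower by less, at -0.93 (limma adjusted p = 0.0131). In these bulk samples, fewer cells that express Angpt1 and less Angpt1 RNA per cell cannot be told apart.

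Other angiopoietin and niche factor genes did not follow Angpt1 past the threshold. Of 10 measured, 0 rose and 0 fell by limma, with 2 higher and 2 lower at an unadjusted p under 0.05, and their median difference was 0.16. An unadjusted p under 0.05 was found for 28.3% of all genes. Cxcr4, the receptor of the niche chemokine CXCL12, had the values 11.05, 10.94 and 11.16 in uninduced and 11.12, 9.84 and 11.07 in induced cells, with induced B below the other 5 arrays; its mean difference was -0.38 (SE 0.29, limma adjusted p = 0.355). Vegfa, a growth factor for blood vessels, was lower on all 3 induced arrays, at 10.04, 9.35 and 9.95 against 10.67, 10.28 and 10.76, a difference of -0.79 (SE 0.20, limma adjusted p = 0.0838). With the array letter as a replicate block Vegfa passed (limma adjusted p = 0.0184), the 1 call in this list under that block; after cyclic loess its difference was -0.45 (limma adjusted p = 0.304). The receptor genes Tek, which encodes TIE2, and Tie1 were within background on every array.

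Myb (chromosome 10, 21124930 to 21160984) encodes the transcription factor that keeps myeloid progenitors dividing. It was at 11.55, 11.63 and 11.71 in uninduced cells and at 11.60, 11.05 and 11.65 in induced cells. Induced A and C lay within the uninduced range and induced B below it. The difference was -0.20 (SE 0.17, 95% interval -0.58 to 0.18, limma adjusted p = 0.404). Without induced B it was -0.01, and after cyclic loess, which aligns the arrays along the level of expression, it was 0.06, on the other side of 0. A second Myb feature nearer to background was also lowest in induced B, at 6.82 against 7.40 and 7.42 in induced A and C. Uninduced cells were at 7.50 to 7.62, so here induced A and C lay below the uninduced range too. The groups of this feature did not overlap, as in 31.4% of all genes. Its difference was -0.35 (SE 0.18, limma p adjusted over all features = 0.272).

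Of 9 measured genes reported elsewhere as Myb targets, 1 rose and 0 fell. Mpo, the myeloperoxidase of primary granules, rose from 7.01, 6.76 and 6.99, all in the range of background, to 7.73, 7.996 and 8.37, each above it on its own array. The difference was 1.11 (SE 0.17, limma adjusted p = 0.0117), and the call ended without uninduced A, uninduced B or induced C (limma adjusted p = 0.056, 0.0549 and 0.052). The list's median difference was -0.02.

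The window of 250 bases before the RefSeq start of Myb is shown with that of Hoxa9, because they differ in the letters GAGGAA, the core that PU.1 prefers: among the members with a window, Hoxa9 has the most matches and Myb is one of those with none. Both are on the minus strand of GRCm38.p6, at chr10:21160985-21161234 for Myb and chr6:52227371-52227620 for Hoxa9, and are written 5′ to 3′ in the direction of the gene, with GAGGAA or its reverse complement in capitals.
Myb: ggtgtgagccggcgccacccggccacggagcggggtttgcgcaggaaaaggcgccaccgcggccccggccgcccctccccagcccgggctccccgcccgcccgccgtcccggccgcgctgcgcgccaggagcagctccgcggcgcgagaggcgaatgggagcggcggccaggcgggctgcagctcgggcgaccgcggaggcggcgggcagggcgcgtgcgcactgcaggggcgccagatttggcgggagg
Hoxa9: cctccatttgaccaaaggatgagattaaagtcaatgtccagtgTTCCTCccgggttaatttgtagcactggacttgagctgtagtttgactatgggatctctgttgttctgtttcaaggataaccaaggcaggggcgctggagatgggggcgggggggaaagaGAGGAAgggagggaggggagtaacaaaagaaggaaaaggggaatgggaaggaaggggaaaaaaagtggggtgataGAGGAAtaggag

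GAGGAA, searched on both strands, occurred in 3 of the 8 members' windows (Hoxa9, Sox4 and Lin28b) and in 23.3% of all 32851 RefSeq windows of this length. Angpt1 and Igf2bp1 had no window. The windows of Meis1, Bcl11a and Lin28b precede a start inside the gene's span, not its outer end. The MEIS letters TGACAG occurred in 1 of 8 (Lin28b), against 15.9% of all windows. The MYB letters AACNG occurred in 5 of 8 (Meis1, Hoxa9, Cd34, Lin28b and Hmga2), against 74.2%. Matches of different motifs may overlap, and each was counted. The Myb window was 81.2% G and C and the Hoxa9 window 49.6%. A match describes letters in this window only.

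Bcl11a (chromosome 11, 24076564 to 24173558) encodes a zinc finger repressor of fetal globin genes that is also needed for lymphoid progenitors. Its values were 8.48, 8.56 and 8.76 in uninduced cells and 8.48, 7.75 and 8.52 in induced cells. As with Myb, induced B stood apart, below its background limit, while induced C lay inside the uninduced range and induced A just under it. The difference was -0.35 (SE 0.20, 95% interval -0.80 to 0.09, limma adjusted p = 0.242). It was -0.11 without induced B and -0.05 after cyclic loess. A second Bcl11a feature was in the range of background on all arrays.

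Genes for partners of BCL11A, mostly subunits of the NuRD and CoREST repressor complexes, and other globin regulators did not pass the test. Of 13, 0 rose and 0 fell by limma, with 6 lower at an unadjusted p under 0.05, and 11 of 13 were below 0. Over all genes 28.3% had such a p in either direction. The median of the 13 was -0.31, and 0.02 after cyclic loess. For the 10 of them among the genes with the higher means it was -0.37, beside -0.25 for all genes with the higher means. The NuRD subunit gene Gatad2b was at -0.16 (SE 0.14, limma adjusted p = 0.396), and the histone deacetylase gene Hdac1 at -0.39 (SE 0.15, limma adjusted p = 0.149). The embryonic globin genes Hbb-y, Hba-x and Hbb-bh1, the only 3 of 9 listed globin genes measured here, were within background on every array.

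Sox4 (chromosome 13, 28948919 to 28953699) encodes an HMG-box transcription factor of progenitors and early lymphoid cells. It was at 6.55, 6.89 and 6.31 in uninduced cells and at 6.62, 5.96 and 6.38 in induced A, B and C, in the range of background throughout. Induced B was again the lowest array, and the other 2 induced arrays lay among the uninduced ones. The difference was -0.26 (SE 0.20, 95% interval -0.70 to 0.17, limma adjusted p = 0.346), -0.09 without induced B and -0.46 after cyclic loess. A second Sox4 feature was in the range of background on all arrays, at 4.82 in uninduced and 4.84 in induced cells. The mean of both features was lower by less, at -0.12.

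Meis1 and Hoxa9 were not detected above background in either group. Meis1 (chromosome 11, 18880428 to 19019651), a TALE homeobox gene whose product binds DNA with HOX proteins, was at 5.49, 5.40 and 5.55 in uninduced and 5.42, 5.62 and 5.49 in induced cells, and the groups overlapped. The difference was 0.03 (SE 0.13, 95% interval -0.25 to 0.31, limma adjusted p = 0.858). Hoxa9 (chromosome 6, 52223097 to 52227370), the homeobox gene whose product acts with MEIS1 in progenitors, was at 6.05, 6.07 and 6.16 in uninduced and 6.01, 6.11 and 6.37 in induced cells, and these overlapped too. The difference was 0.07 (SE 0.14, 95% interval -0.23 to 0.37, limma adjusted p = 0.718). Both values turned below 0 under median centring, quantile normalization and cyclic loess, none of them past the threshold. At this level a change in RNA amount of either gene was not measurable on the array.

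No gene of the wider HOX and TALE family passed the test. Of 25 measured, 0 rose and 0 fell by limma, with 0 higher and 1 lower at an unadjusted p under 0.05. In all, 17 lay in the range of background on every array, 0 above it on every array, and the other 8 on either side of it. The TALE genes Pknox2 and Pbx3 had the highest means. Pknox2 was at 8.37, 8.80 and 8.20 in uninduced and 7.99, 7.96 and 7.72 in induced cells, with no overlap, as in 31.4% of all genes. The difference was -0.57 (SE 0.17, limma adjusted p = 0.11). Pbx3, a cofactor of HOX proteins, was at -0.17 (SE 0.14, limma adjusted p = 0.405).

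Genes reported elsewhere as targets of HOXA9 or MEIS1 included 6 of 13 that were above background on all arrays, while Hoxa9 and Meis1 themselves were not. By limma 0 rose and 0 fell, with 2 higher and 1 lower at an unadjusted p under 0.05. Cdk6, a kinase of the G1 phase, was at -0.18 (SE 0.14, limma adjusted p = 0.355). Pim1, a survival kinase gene, was at 10.87, 11.20 and 10.80 in uninduced and 10.58, 10.62 and 9.67 in induced cells, a difference of -0.67 (SE 0.24, limma adjusted p = 0.133) with induced C far below the rest.

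Other progenitor transcription factor genes did not pass the test either. Of 35 measured, 0 rose and 0 fell by limma, with 3 higher and 7 lower at an unadjusted p under 0.05, and the median difference was -0.19, or -0.01 after cyclic loess. An unadjusted p under 0.05 was found for 28.3% of all genes. The ETS factor gene Fli1 was at 11.35, 11.43 and 11.31 in uninduced and 11.29, 10.97 and 11.05 in induced cells, below the uninduced range on all 3 induced arrays by small amounts. Its difference was -0.26 (SE 0.13, limma adjusted p = 0.209), and in 31.4% of all genes the groups did not overlap. Ldb1, the bridging subunit of the TAL1 and LMO2 complex, was at -0.39 (SE 0.16, limma adjusted p = 0.158).

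Cd34 (chromosome 1, 194938821 to 194961292) encodes the sialomucin used to mark haematopoietic progenitors. Its values were 6.71, 6.26 and 6.44 in uninduced cells and 6.63, 6.86 and 6.78 in induced A, B and C, all in the range of background. Induced B and C were above every uninduced array and induced A was not. The difference was 0.29 (SE 0.15, 95% interval -0.04 to 0.62, limma adjusted p = 0.213). Array weights, which count the less variable arrays more, put it at 0.31 and past the threshold (limma adjusted p = 0.0187), but that setting called 51.9% of all genes. After cyclic loess it was 0.12. Another feature, shared with Gm16897 and not counted, was in the range of background on all arrays, at 4.87 in uninduced and 5.09 in induced cells.

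Of 15 other progenitor surface genes 0 rose and 0 fell by limma, with 2 higher and 0 lower at an unadjusted p under 0.05 and a median of 0.07. Cd164, another sialomucin, was at 11.53, 11.57 and 11.51 in uninduced and 11.31, 11.59 and 11.26 in induced cells, a difference of -0.15 (SE 0.13, limma adjusted p = 0.422). Cd93, a receptor of early progenitors and of myeloid cells, was at -0.28 (SE 0.15, limma adjusted p = 0.223). The stem cell factor receptor gene Kit, above background on all 6 arrays, was at 9.18, 9.72 and 9.50 in uninduced and 9.62, 9.16 and 9.62 in induced cells, so the groups overlapped.

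**Figure D2:**
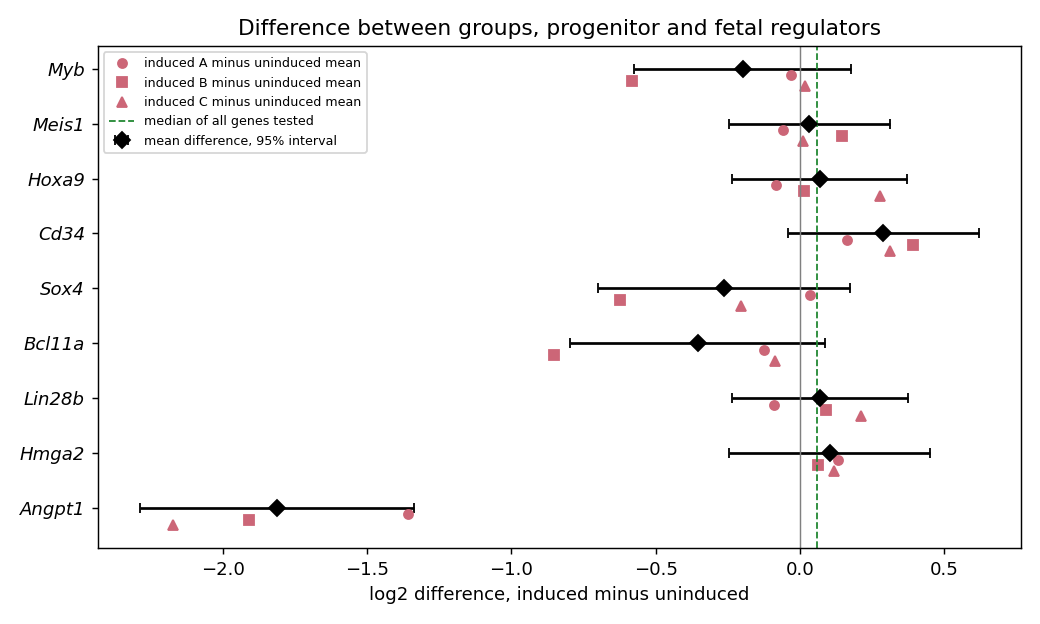
Log2 difference (induced minus uninduced, x axis) of each of the 9 genes, as the mean difference with its 95% interval (black) and as each induced array minus the uninduced mean (red; circle A, square B, triangle C); the dashed line is the median of all genes, 0.06. The interval of Angpt1 lies wholly below 0 and the other 8 include 0, and induced B is the array that pulls Myb, Bcl11a and Sox4 to the left.

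The fetal LIN28B and let-7 axis was read at 3 points: Lin28b itself, the let-7 precursor genes and the let-7 targets. Lin28b (chromosome 10, 45376617 to 45486314) was at 5.54, 5.33 and 5.56 in uninduced cells and at 5.38, 5.56 and 5.68 in induced cells. All 6 values lay in the range of background and the groups overlapped. The difference was 0.07 (SE 0.14, 95% interval -0.23 to 0.38, limma adjusted p = 0.712). Its paralogue Lin28a was in the range of background on all arrays too.

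The let-7 family is shown by its mature sequences, since the shared seed is what LIN28-controlled targets such as Hmga2 are paired through. Of 12 listed precursor genes 11 had a mature 5p sequence in RefSeq (GRCm38.p6), with 9 distinct sequences and 1 seed. Examples are printed with the seed, bases 2 to 8, in capitals.
let-7a-5p: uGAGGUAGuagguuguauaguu
let-7b-5p: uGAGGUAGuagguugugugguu
let-7g-5p: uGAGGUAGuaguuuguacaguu
let-7i-5p: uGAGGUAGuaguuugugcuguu
miR-98-5p: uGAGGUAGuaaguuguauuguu

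The array features read the precursor genes, not the mature microRNAs. Of the 12 precursor genes 0 rose and 0 fell by limma, with 0 in either direction at an unadjusted p under 0.05 and a median of 0.02, and 11 were within background on every array. Mirlet7a-1 was above it throughout, at 8.18, 7.41 and 7.35 in uninduced and 7.66, 8.10 and 8.19 in induced cells, a difference of 0.34 (SE 0.23, limma adjusted p = 0.305) that is smaller than the range among the uninduced arrays. Mirlet7i was at 0.25 (SE 0.12, limma adjusted p = 0.201). Genes of let-7 processing and turnover numbered 12, of which 0 rose and 0 fell by limma. At an unadjusted p under 0.05 5 were lower, where 28.3% of all genes had such a p in either direction. The median of the 12 was -0.33, beside -0.25 for the genes with the higher means, and -0.03 after cyclic loess. The RNA helicase genes Ddx5 and Ddx17, cofactors of the Drosha complex, were at -0.25 (SE 0.19) and -0.23 (SE 0.15).

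Hmga2 (chromosome 10, 120361268 to 120476469) encodes an AT-hook chromatin protein of fetal stem cells and is a let-7 target. It was at 7.86, 7.34 and 7.83 in uninduced cells and at 7.81, 7.74 and 7.79 in induced cells. The 3 induced values fell within the uninduced range, and uninduced B was the lowest array. The difference was 0.10 (SE 0.16, 95% interval -0.25 to 0.45, limma adjusted p = 0.637), and -0.06 without uninduced B. Hmga2 exceeded the background limit on all 3 uninduced arrays but on 1 of 3 induced ones, because that limit was higher on induced B and C.

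Igf2bp1 (chromosome 11, 95957163 to 96005944) encodes an RNA-binding protein of fetal tissues. Its only feature, shared with Mir3063, was at 5.62, 5.57 and 5.55 in uninduced and 5.59, 5.92 and 5.82 in induced cells, in the range of background on all 6 arrays, and cannot be assigned to Igf2bp1 alone. Its paralogue Igf2bp3 was above that range throughout, at 8.87, 9.27 and 8.96 in uninduced and 8.89, 8.63 and 8.36 in induced cells, a difference of -0.41 (SE 0.17, limma adjusted p = 0.156). Of 13 oncofetal genes and reported let-7 targets 0 rose and 0 fell by limma, with 0 higher and 4 lower at an unadjusted p under 0.05 and a median of -0.18. Over all genes 28.3% had such a p in either direction. Igf1r, which encodes the receptor of insulin-like growth factor 1, had the smallest p of the list and was chosen after its values were seen. It was at 9.65, 10.08 and 9.95 in uninduced and 9.25, 9.29 and 9.18 in induced cells, with no overlap, as in 31.4% of all genes. The difference was -0.66 (SE 0.14, limma adjusted p = 0.0547). Igf1r passed when dim genes were removed at the 25th or the 50th percentile of the mean (limma adjusted p = 0.0453 and 0.0438), and was at -0.29 after cyclic loess (limma adjusted p = 0.312). Cdc25a, a phosphatase of the G1/S step, was at -0.51 (SE 0.21, limma adjusted p = 0.155), and the RAS gene Nras at -0.24 (SE 0.14, limma adjusted p = 0.25).

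**Figure D3:**
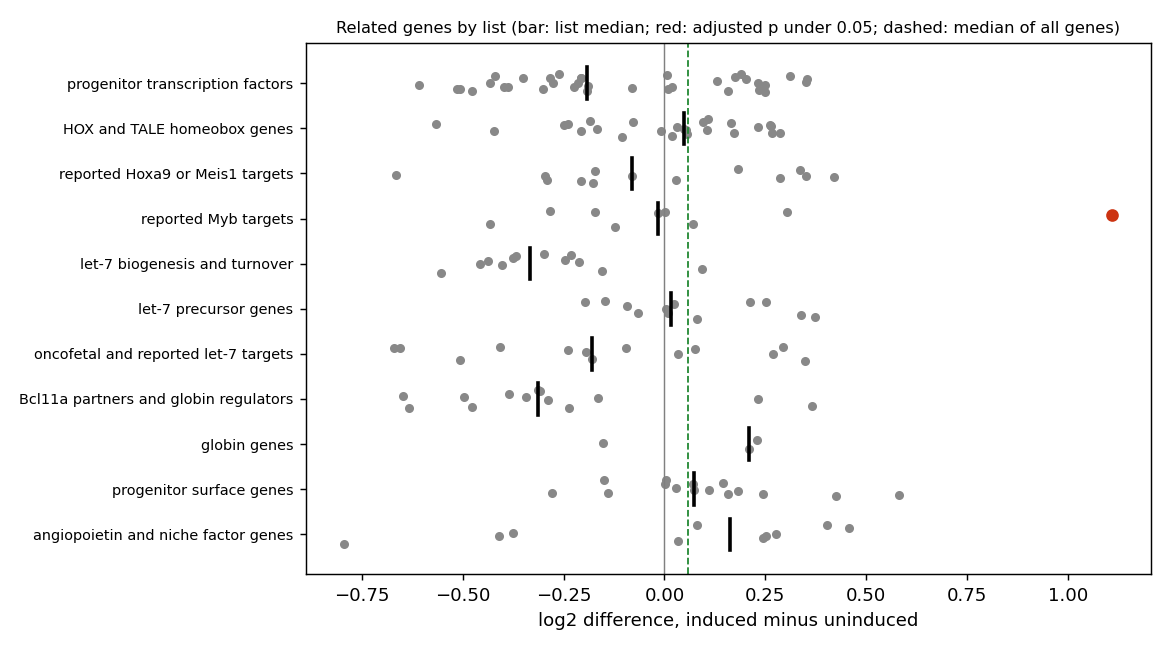
Log2 difference (induced minus uninduced, x axis) of each gene of the 11 related lists, which leave out the genes of the set itself; each point is a gene, the black bar is the list's median and the dashed line the median of all genes, 0.06. The 1 red point past the threshold is Mpo, at 1.11, and the let-7 processing and Bcl11a partner lists lie furthest to the left, with medians of -0.33 and -0.31.

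Set against all genes, the 9 measured regulators had 1 member called of 9, where 1.42% of all genes were called, 0.374% higher and 1.05% lower. Without overlap between the groups were 1 of 9, against 31.4% of all genes, and 1 of 9 had an unadjusted p under 0.05, against 28.3%. Their median difference was 0.03, beside 0.06 for all genes. With 9 genes these shares describe the set and support no comparison of it with other genes. Without induced A, 24.9% of all genes were called, and of these 9 still only Angpt1. Under median centring, quantile normalization and cyclic loess Angpt1 was at -1.93, -1.75 and -1.67, past the threshold each time, and the other 8 did not pass.

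Genes of most related lists were called when induced A was left out, where 9.01% of all genes were higher and 15.9% lower. Of the Bcl11a partners 7 of 13 then fell, of the let-7 processing genes 4 of 12, of the oncofetal genes and let-7 targets 4 of 13, and of the HOX and TALE genes 2 of 25, with 0 rising in each of these. Of the other progenitor transcription factors 1 rose and 6 fell of 35, of the angiopoietin and niche genes 2 rose and 2 fell of 10, and of the surface genes 2 rose and 0 fell of 15. Of the reported HOXA9 or MEIS1 targets 1 rose and 1 fell of 13, and of the reported Myb targets 1 rose and 0 fell of 9. No let-7 precursor and no globin gene was called, 0 of 12 and 0 of 3. These counts rest on 2 induced arrays, the ones with the narrower spread, and the part of that spread in them was not tested.

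**Figure D4:**
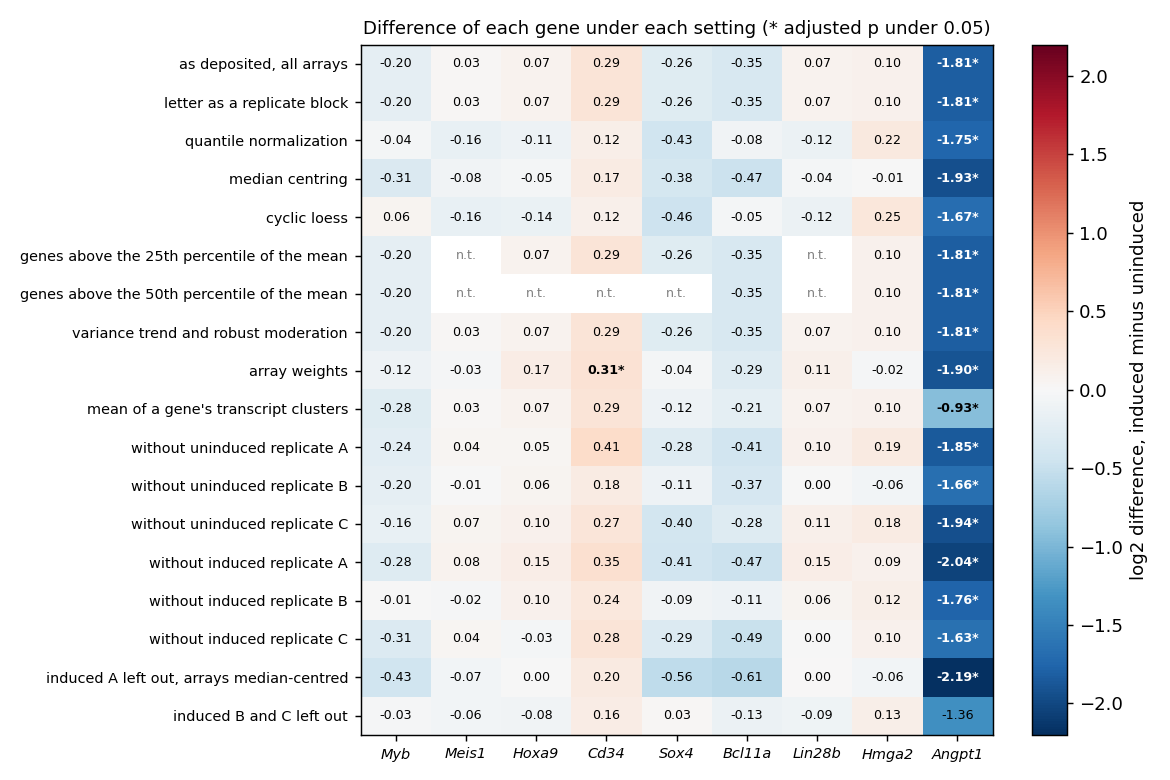
Log2 difference (induced minus uninduced, colour and printed value) of each of the 9 genes (columns) under each processing setting (rows); an asterisk marks an adjusted p under 0.05, and n.t. marks a gene removed by a filter on dim genes. Angpt1 is marked in every row but the last, which uses induced A alone, and Cd34 is marked under array weights only.

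The labelled cell type was checked against markers. Of 12 myeloid markers 8 were above background on all arrays, 5 rose and 0 fell, where 0.374% of all genes rose. The mean over the list ran from 8.42 to 8.65 on the uninduced and from 9.23 to 9.34 on the induced arrays. Differences of 2 of the 12 were below 0, Cebpa among them at -0.40 (SE 0.21, limma adjusted p = 0.212). Without induced A 6 rose and 1 fell, where 9.01% of all genes were higher and 15.9% lower. Tyrobp, an adaptor of activating myeloid receptors, went from 7.34, 7.30 and 8.08 to 10.65, 10.74 and 10.60. It was high on all induced arrays, induced A among them. Lyz2 (lysozyme), Cd68 and Mpo rose as well, by 1.43 (SE 0.15), 1.36 (SE 0.18) and 1.11 (SE 0.17). Ptprc, which encodes CD45, passed the test, but all 6 of its values were within background and its call ended under cyclic loess, median centring, quantile normalization and without uninduced B.

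Markers of other cells of the fetal liver did not pass the test in any list; without induced A, 1 megakaryocyte and 1 lymphoid marker were called higher and 1 erythroid marker lower. In the range of background on all arrays were 6 of 7 hepatocyte, 6 of 6 megakaryocyte, 6 of 8 B and lymphoid, 9 of 10 mast cell and 8 of 10 endothelial and stromal markers, and 3 of 4 erythroid ones. Those above it on every array were Tfrc (erythroid list), Kit (mast cell list) and Pecam1 (endothelial list), which myeloid progenitors are also known to express. The mean over each list stayed within 6.51 to 6.97 for hepatocyte, 6.95 to 7.11 for endothelial and stromal and 5.58 to 5.82 for mast cell markers across all arrays. Megakaryocyte markers ran from 6.36 to 6.71, B and lymphoid ones from 6.18 to 6.42 and erythroid ones from 7.55 to 7.75.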

How the data were processed

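The authors deposited 1 log2 value per feature (transcript cluster) and array. Partek and mouse build mm10 were used, per the submitters' processing notes; the background correction and normalization were not given in the sources used here, and the log2 scale was read from the values (2.86 to 14.03). Gene symbols came from the array's annotation in GEO, which may be outdated: of 41345, 23521 carried 1 symbol, 1814 several and 16010 none here. Coordinates, promoters and miRNAs are RefSeq's (GRCm38.p6, the assembly also called mm10).

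The test was limma's (version 3.58.1, R 4.3.3; lmFit, eBayes, two-sided, no covariate, no filter), with Benjamini-Hochberg adjustment over 22180 genes at 0.05, and the script was checked on simulated data. Members and lists were chosen with earlier results of these data known. All members are named, and of each related list up to 4 genes past the threshold or else the 2 with the highest mean. Spi1 and some cell type markers that check the labelled cell type are named outside this rule. Tek, Tie1, Kit, Lin28a, Igf2bp3, Igf1r, Hbb-bh1 and Cebpa were added after values were seen. Of 233 listed genes 202 were found; the others are not analysed here. Alternatives were a replicate block, 3 normalizations, 2 filters at the 25th and 50th percentile, other moderation, array weights, feature means and leaving out arrays; 2 more, leaving out induced A after median centring and leaving out induced B and C, were added after seeing the data. The number of arrays limits precision.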

Additional observations from a re-analysis of the deposited data

How the results depend on the processing

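Angpt1 fell under all alternatives but induced A alone (-1.36, limma adjusted p = 0.0729, 0 members called lower), which leaves 1 induced array and assumes that it varies like the uninduced ones. Array weights called 1 member higher (Cd34); the C arrays had weights of 4.6 (uninduced) and 3.46 (induced), the other 4 of 0.309 to 0.932. Over all genes, 83 were higher and 232 lower as deposited. The counts were 174 and 425 with the letter as a replicate block, 51 higher under median centring, 108 lower under quantile normalization, 118 lower under cyclic loess, 5825 and 5681 with array weights, 691 and 4577 with induced A left out after median centring, and 41 and 19 with induced A alone. Leaving out 1 array gave 45 to 1998 higher and 47 to 3535 lower; both upper ends are without induced A.

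Whether the letters pair the arrays could not be decided. Deviations from the group means correlated at -0.312 for A, -0.278 for B and 0.416 for C. Between arrays of different letters such correlations ran from -0.421 to 0.516. With so few arrays per group the deviations constrain one another, so these correlations can neither show nor exclude pairing. Under the replicate block no member's call changed (Angpt1 limma adjusted p = 1.83e-05), and among the related lists Vegfa was gained.

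Sign changes all lay among differences that passed in no setting. Under cyclic loess these were 0.056 for Myb, -0.16 for Meis1, -0.14 for Hoxa9 and -0.12 for Lin28b, and under quantile normalization -0.16, -0.11 and -0.12 for the last 3. Median centring gave -0.082 for Meis1, -0.045 for Hoxa9, -0.044 for Lin28b and -0.011 for Hmga2, and array weights -0.026 for Meis1 and -0.019 for Hmga2. With induced A left out after median centring the values were -0.068 for Meis1, -0.0010 for Hoxa9 and -0.058 for Hmga2. With induced A alone they were -0.059 for Meis1, -0.084 for Hoxa9, 0.034 for Sox4 and -0.091 for Lin28b. Leaving out 1 array gave ranges of -0.024 to 0.078 for Meis1, -0.035 to 0.15 for Hoxa9, -0.0033 to 0.15 for Lin28b and -0.064 to 0.19 for Hmga2. The causes were not tested. Signal over background limits Meis1, Hoxa9, Cd34, Sox4 and Lin28b, for which no change in either direction can be read.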
